A study of Mus musculus with 6 samples.

Results

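The numbered cadherin and protocadherin genes of the embryonic mouse forebrain are described here. The family was taken by gene symbol: every gene named Cdh or Pcdh followed by a number, or by a number and x, with the endothelial gene Cdh5 left out. The rule gave 33 genes among the 33084 in the count table. Of these, 31 had enough reads to be tested, and Cdh19 and Cdh26 did not. The rule used no measured value. The name classical cadherins covers the type I and type II genes only, which are 5 and 12 of the 33. A further 4 are other cadherins (Cdh13, Cdh17, Cdh23 and Cdh26), and 12 are protocadherins outside the gene clusters.

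RNA was sequenced from forebrains microdissected at embryonic day 15.5. There were 3 mutant libraries, genotype Dyrk1a<DlxCre/+>, in which the kinase gene Dyrk1a is conditionally inactivated in the Dlx5 domain, and 3 control libraries labelled wt. The genotype is written with a + allele, that is, with 1 copy intact. The Dlx5 domain holds the developing GABAergic cells of the ventral forebrain, whereas the libraries hold all forebrain cells. The sources used here do not state whether the controls carried the Cre driver, so effects of the driver and of the inactivation cannot be told apart. Litters are not given in the labels, and p-values measure the spread between these libraries, which may be partly technical.

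Cadherins are calcium-dependent adhesion proteins, and cells that carry the same cadherin tend to sort together. The tails of type I and type II cadherins bind catenins, which link them to actin. In the developing forebrain, N-cadherin (Cdh2) holds radial glia together at the ventricular surface, and the type II genes are expressed in regional and layer patterns that differ from gene to gene. The non-clustered protocadherins, most of which are called delta-protocadherins, lack the catenin-binding tail. Delta-2 members can recruit the WAVE actin regulator, and several of these genes act in axon outgrowth and the sorting of axons.

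The libraries held 25360030 to 28339650 counts in the mutants and 24646616 to 38315004 in the controls. Dyrk1a had 186, 159 and 182 CPM in the mutants, against 169, 183 and 180.2 CPM in the controls, with groups that overlapped and a log2 fold change, mutant over control, of -0.015 ± 0.091 (SE). CPM is a gene's read count scaled to its library's depth, with libraries aligned by the TMM method. The Dyrk1a count covers the whole gene and does not single out the deleted part. Forebrain markers were present in each library, with Emx1, a transcription factor of the dorsal telencephalon, at 29.3, 33.7 and 39.3 CPM in the mutants, against 21.8, 27.7 and 34.8 CPM in the controls. Libraries numbered 3 stood apart in both genotypes. Hbb-y, an embryonic globin of primitive red cells, had 35.5, 41.5 and 322 CPM in the mutants, against 42.5, 27.8 and 321 CPM in the controls. The red cell markers did not move as 1 group. Hbb-bs had 329, 354 and 256 CPM in the mutants, against 304, 320 and 209 CPM in the controls. Of the 9 red cell markers, 4 were lowest in replicate 3 of both genotypes and 4 were highest. All 10 proliferating cell markers were also highest in replicate 3 of each genotype, with a summed level of 1113, 1120 and 1860 CPM in the mutants and 1114, 1020 and 1769 CPM in the controls. Control replicate 1 was low in other lists. The controls' summed forebrain markers were at 265, 357 and 359 CPM and their ventral GABAergic markers, which share Dlx1 and Dlx2, at 421, 517 and 487 CPM. Their cortical projection neuron markers were at 1263, 1469 and 1249 CPM, lowest in replicate 3.

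The family was led by Cdh2 (ENSMUSG00000024304, GRCm38 chromosome 18, 16588877 to 16809246, reverse strand). Levels of different genes are compared as CPM per kilobase of exon, which takes account of gene length. On that scale Cdh2 averaged 57.2 over the 6 libraries, ranging from 54.9 to 60.4, and it supplied 20.0% to 22.9% of the summed level of all 33 members in the mutants and 20.7% to 22.3% in the controls. Pcdh9 (ENSMUSG00000055421, GRCm38 chromosome 14, 93013410 to 93890679, reverse strand), a delta-1 protocadherin, followed at 36.6, with a range of 32.5 to 40.0. The lowest Cdh2 library lay above the highest of Pcdh9, and the lowest Pcdh9 library above the highest of any other member.

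Below them came a group of members whose library ranges overlapped with their neighbours in the order. It held Cdh4 at 16.4 CPM per kilobase, Pcdh7 at 15.8, Pcdh19 at 14.2, Cdh8 at 13.9, Pcdh18 at 13.4, Pcdh10 at 12.1, Pcdh8 at 11.4, Cdh11 at 11.0, Cdh13 at 10.4 and Cdh24 at 9.27. Their order depended on the length used: per kilobase of the longest transcript, Cdh13 moved from rank 11 to rank 3, Cdh4 from rank 3 to rank 7, and 11 of the 12 highest members were the same. Pcdh17 and Pcdh1 followed at 9.05 and 7.83 CPM per kilobase of exon. A further 12 members lay between 1.15 (Cdh23) and 4.20 (Pcdh11x).

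The lowest members included the cadherins of epithelia and muscle. Cdh1 and Cdh3, the epithelial E- and P-cadherin genes that neighbour each other on chromosome 8, averaged 0.667 and 0.555 CPM per kilobase. Cdh9, a type II gene of neurons, was at 0.985. Cdh15, the M-cadherin gene known from skeletal muscle, was at 0.241, and Cdh17, the liver-intestine cadherin gene, at 0.147. The untested Cdh19, a type II gene known from Schwann cells and their precursors, had 13, 1 and 4 reads in the mutants and 7, 3 and 9 in the controls. Cdh26 had 2, 3 and 6 reads in the mutants and 7, 9 and 4 in the controls.

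**Figure D1:**
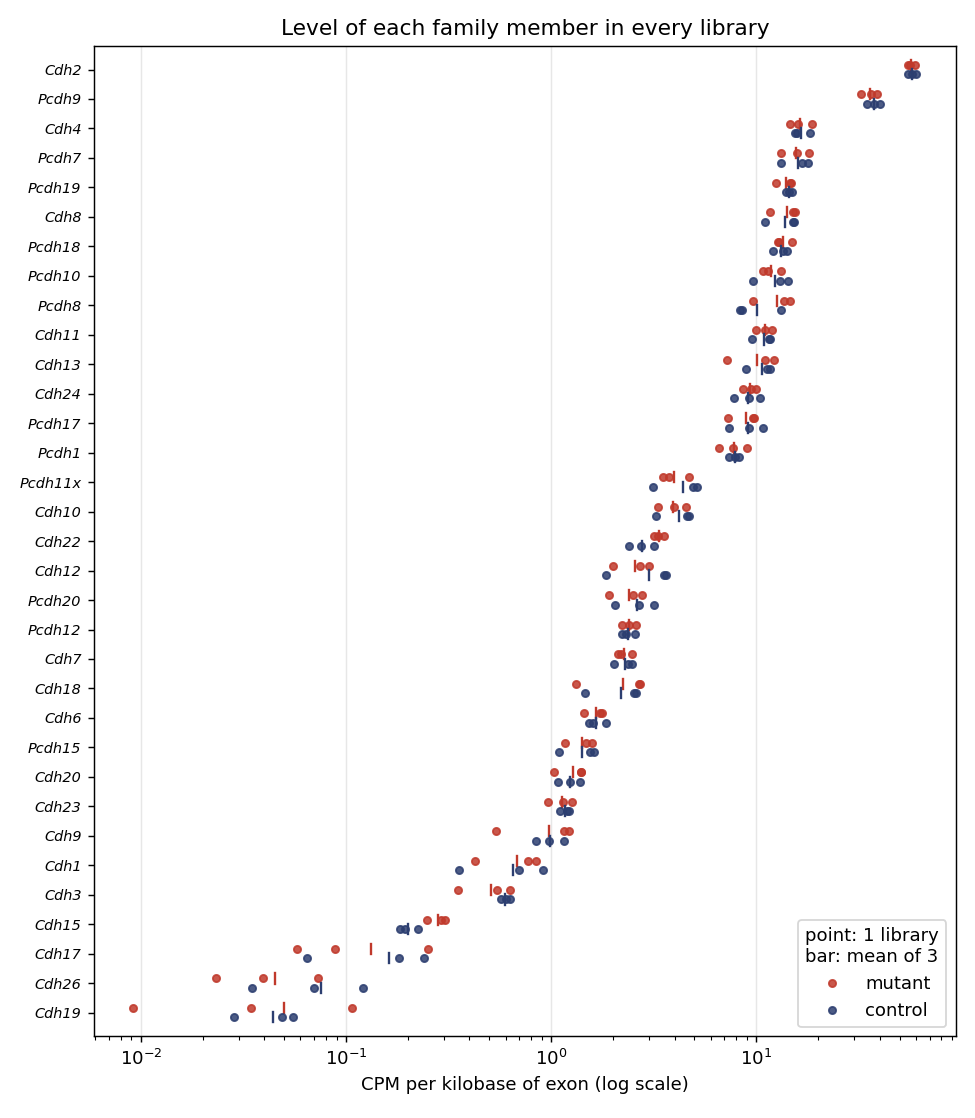
Level of all 33 members in CPM per kilobase of exon on a log axis, each point 1 library and each bar the mean of 3, with mutants in red above controls in blue. Cdh2 and Pcdh9 stand to the right of all others, and mutant and control points overlap for every member except Cdh15.

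No member was called between genotypes. With Benjamini-Hochberg adjustment of edgeR's quasi-likelihood test over all 19616 genes tested, 0 members were higher and 0 lower in the mutants, where 0% of all genes were called in either direction. The adjusted p of every member was 0.9999. Unadjusted, 0 members had a p under 0.05, against 1.92% of all genes, and DESeq2 and limma-voom likewise gave 0 members at that level. Of the 31 tested members, 11 lay above 0 (47.5% of all genes did) and 20 below (52.5% of all genes). The member log2 fold changes ran from -0.25 (Cdh17) to 0.49 (Cdh15), with a median of -0.016, beside -0.0079 over all tested genes. Only Cdh15 had its 3 mutants above its 3 controls, a pattern of 3.19% of all genes, and 0 members had all mutants below all controls, against 3.70% of all genes.

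The precision differed between members. The 95% interval lay inside a 1.5-fold change in both directions for 23 members and inside a 2-fold change for 29, the exceptions being Cdh15 and Cdh17. These intervals are for the whole forebrain, with no separate value for the Dlx5 domain. In bulk tissue, fewer cells that express a gene and less RNA per cell cannot be told apart.

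**Figure D2:**
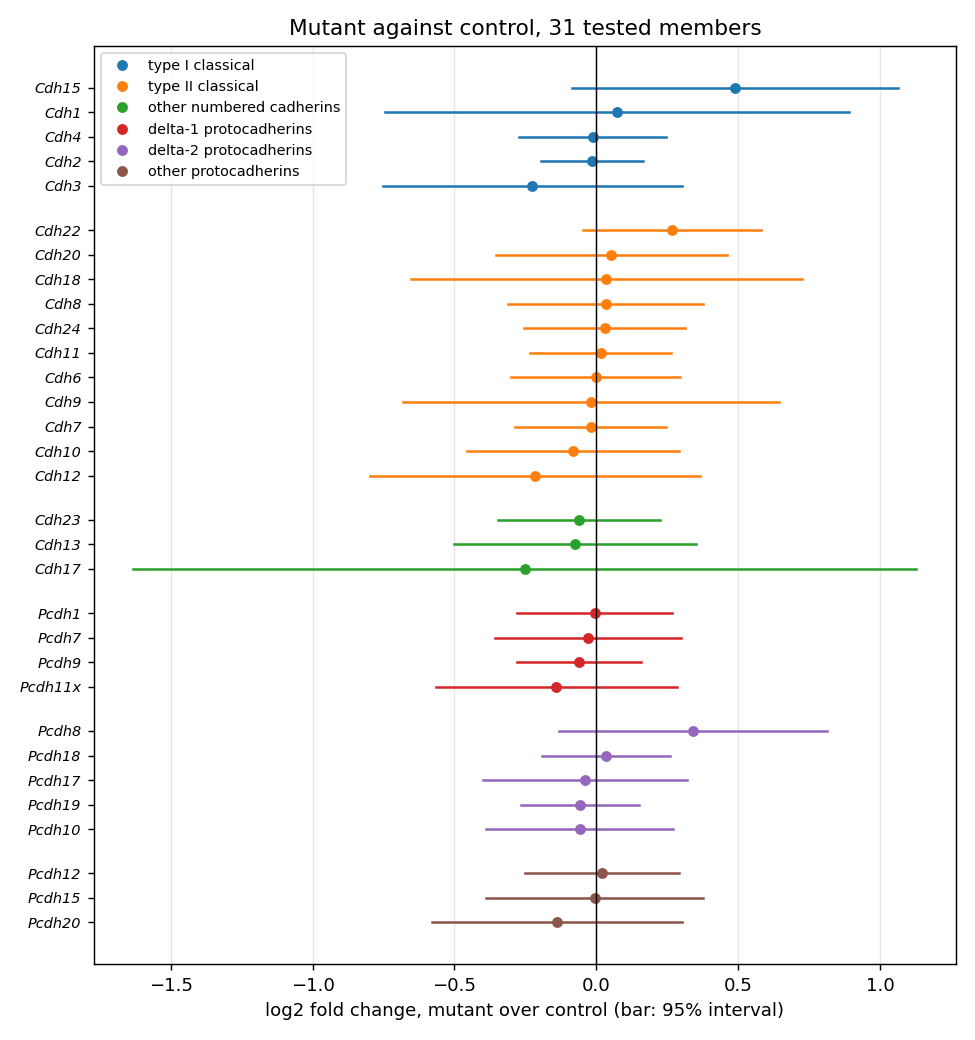
Log2 fold change, mutant over control, of the 31 tested members with 95% intervals, grouped by subfamily. Every interval crosses 0, and the widest, for Cdh17, belongs to the member with the lowest level tested.

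Among the type I genes, Cdh2 had 478, 445 and 454 CPM in the mutants, against 463, 487 and 443 CPM in the controls. The genotypes overlapped, and its log2 fold change of -0.016 ± 0.079 (SE) had the narrowest 95% interval of the family, -0.20 to 0.16. Cdh4, which encodes R-cadherin of the retina and forebrain, had 116, 135 and 106 CPM in the mutants, against 112, 133 and 115 CPM in the controls, and its log2 fold change was -0.012 ± 0.11 (SE). In both genotypes replicate 2 was its highest library.

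Cdh15 (ENSMUSG00000031962, GRCm38 chromosome 8, 122847966 to 122867397, forward strand) had the smallest unadjusted p of the family (0.0857, edgeR). It had 0.984, 0.945 and 0.811 CPM in the mutants, against 0.599, 0.730 and 0.632 CPM in the controls, which are 28, 24 and 22 reads in the mutants and 20, 18 and 24 in the controls. The groups did not overlap after scaling for depth, and the log2 fold change was 0.49 ± 0.25 (SE), with a 95% interval of -0.085 to 1.06 and an adjusted p of 0.9999 (edgeR). Each library rests on 28 reads or fewer. Cdh3 had 2.78, 2.40 and 1.55 CPM in the mutants, against 2.49, 2.76 and 2.64 CPM in the controls, a log2 fold change of -0.22 ± 0.23 (SE). Mutant replicate 3 was its lowest library and mutant replicate 1 its highest. Cdh1 had 3.52, 3.86 and 1.95 CPM in the mutants, against 3.18, 4.17 and 1.63 CPM in the controls, and in both genotypes replicate 3 was lowest.

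Of the 11 tested type II genes, 6 were above 0 and 5 below it, and the median log2 fold change was 0.015. Cdh8, a gene of striatal and cortical neurons, had 117, 119 and 90.9 CPM in the mutants, against 118, 117 and 85.1 CPM in the controls, and its log2 fold change was 0.033 ± 0.15 (SE). Cdh11, expressed in brain and in mesenchyme, had 107, 98.7 and 88.7 CPM in the mutants, against 103, 104 and 85.2 CPM in the controls, at 0.015 ± 0.11 (SE). For both genes the genotypes overlapped and replicate 3 was the lowest library of each. Cdh24, a broadly expressed type II gene, ran the other way, with 30.0, 33.1 and 34.9 CPM in the mutants, against 27.3, 32.1 and 36.6 CPM in the controls: replicate 3 was highest in each genotype, and the fold change between genotypes was 0.029 ± 0.12 (SE, log2).

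Cdh22 (ENSMUSG00000053166, GRCm38 chromosome 2, 165111507 to 165234853, reverse strand), a brain type II gene, had the second smallest p in the family (0.0876 unadjusted and 0.9999 adjusted, edgeR). It had 12.3, 13.2 and 11.8 CPM in the mutants, against 8.93, 10.2 and 11.8 CPM in the controls. The lowest mutant lay just below the highest control, replicate 3, and the log2 fold change was 0.27 ± 0.14 (SE), with a 95% interval of -0.048 to 0.58. Replicates 1 and 2 alone differed by 0.41 (log2 CPM, mutant minus control) and replicate 3 alone by -0.0052. Cdh20 had 5.59, 5.63 and 4.13 CPM in the mutants, against 4.94, 5.55 and 4.35 CPM in the controls, a log2 fold change of 0.052 ± 0.18 (SE). Cdh12 had 18.9, 17.1 and 12.7 CPM in the mutants, against 22.9, 22.3 and 11.6 CPM in the controls, at -0.22 ± 0.26 (SE). In Cdh12 both replicate 3 libraries were low, and control replicates 1 and 2 were the highest of all.

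The other 5 tested type II genes were Cdh6, Cdh7, Cdh9, Cdh10 and Cdh18. Their libraries overlapped between genotypes in each case. Cdh10 was the most abundant of them by CPM, at 39.7 ± 6.18 CPM in the mutants and 42.1 ± 8.16 CPM in the controls (SD, n = 3 each). Cdh6, Cdh9, Cdh10, Cdh12 and Cdh18 lie on chromosome 15, and they did not share a level. Per kilobase of exon, Cdh10 was at 4.07, Cdh12 at 2.79, Cdh18 at 2.22, Cdh6 at 1.66 and Cdh9 at 0.985. Library ranges of neighbours in this order overlapped from Cdh10 down to Cdh6. The order also depended on the length used: per kilobase of the longest transcript, Cdh18 at 3.69 lay above Cdh12 at 2.93.

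The remaining cadherins differ in build from the classical ones. Cdh13 (T-cadherin), which is anchored by lipid and has no tail inside the cell, had 123, 137 and 80.5 CPM in the mutants, against 127, 132 and 101 CPM in the controls. Mutant replicate 3 was the lowest library, and the log2 fold change was -0.075 ± 0.19 (SE). Cdh23, a long cadherin known from the tip links of hair cells, was at 19.1 ± 2.61 CPM in the mutants and 19.9 ± 1.09 CPM in the controls (SD, n = 3 each). Its tip-link partner Pcdh15 was at 33.6 ± 5.16 CPM in the mutants and 33.8 ± 6.74 CPM in the controls (SD, n = 3 each). Cdh17 ran from 7 to 32 reads in the mutants and from 11 to 36 in the controls, lowest in replicate 3 of each.

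The 4 delta-1 protocadherins all lay below 0, at a median of -0.045 (log2), and 0 were called. Pcdh9 had 262, 247 and 220.2 CPM in the mutants, against 271, 255 and 235 CPM in the controls, and its log2 fold change was -0.061 ± 0.097 (SE). Pcdh7, a gene of axon and dendrite growth, had 192, 167 and 140.1 CPM in the mutants, against 178, 190.5 and 141 CPM in the controls, at -0.029 ± 0.14 (SE). Pcdh11x, the X-linked member, had 65.4, 52.6 and 49.2 CPM in the mutants, against 71.7, 68.7 and 43.9 CPM in the controls, at -0.14 ± 0.19 (SE). In all 3 genes the genotypes overlapped and replicate 3 was lowest in each genotype. After correction of each library for GC content and length, Pcdh7, Pcdh9 and Pcdh11x lay above 0, at 0.034, 0.016 and 0.035 (log2). Pcdh1 had 68.2, 79.8 and 58.2 CPM in the mutants, against 65.0, 72.9 and 69.2 CPM in the controls, with mutant replicate 3 lowest and mutant replicate 2 highest.

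The 5 delta-2 protocadherins are shown with a stretch of their promoters, because all 5 hold a CCAAT box close to the start and 4 of them share a longer run around it. Each line is the gene strand, 5′ to 3′, from RefSeq on GRCm38.p6, with the box in capitals. In these 5 it reads ATTGG, the reverse complement of CCAAT.
Pcdh8, chr14:79771364-79771392, reverse strand: ggctaagcgaccATTGGctggccccttcc
Pcdh10, chr3:45378336-45378364, forward strand: tgctcctcggcgATTGGttggcagaatga
Pcdh17, chr14:84443493-84443521, forward strand: ctccccacgccgATTGGctggcagagaat
Pcdh18, chr3:49757332-49757360, reverse strand: ggaagctcgctgATTGGctggaagcgatt
Pcdh19, chrX:133689042-133689070, reverse strand: ggctgcgcgctgATTGGctagtgcctggc

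The box ended 27 (Pcdh18), 45 (Pcdh10), 53 (Pcdh17), 60 (Pcdh19) and 63 (Pcdh8) bases before the annotated start. CCAAT on either strand was present in the 100 bases before the start in 5 of 5 delta-2 windows, in 13 of the 25 windows matched to 22 members, and in 18.9% of all 32851 windows in the table. The subfamily was shown for this box, and the 100-base span was chosen after the sequences had been seen. The 5 of 5 was therefore fixed by the choice and is no test of enrichment. The run ATTGGNTGG, picked after the sequences had been seen, was present on either strand in Pcdh8, Pcdh10, Pcdh17 and Pcdh18, in 1 further member window (Cdh18) and in 1.11% of all windows over the same 100 bases. Over the whole windows of 300 bases CCAAT was in 17 of 25 member windows and 37.4% of all. The GC box GGGCGG was in 9 of 25 and 35.7%, the E-box CACCTG in 5 of 25 and 20.2%, and TATAAA in 2 of 25 and 13.6%. Member windows differed from the rest in base content, with a median of 14 CG dinucleotides against 7 over all windows, and the shares were not matched for it. Both strands were searched, the ATTGGNTGG run overlaps the CCAAT box, and a match is no measure of binding. The members without a window in the table were Cdh1, Cdh2, Cdh3, Cdh4, Cdh11, Cdh13, Cdh17, Cdh19, Pcdh1, Pcdh11x and Pcdh12.

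Over the libraries the 5 delta-2 genes had different profiles, with replicate 3 lowest in both genotypes for Pcdh10 and Pcdh17 and highest in both for Pcdh18. Pcdh8 (ENSMUSG00000036422, GRCm38 chromosome 14, 79766775 to 79771312, reverse strand), also called arcadlin, has a role in activity-dependent turnover of N-cadherin at synapses. Its p was the third smallest of the family (0.136 unadjusted and 0.9999 adjusted, edgeR). It had 66.6, 62.3 and 43.9 CPM in the mutants, against 38.0, 60.1 and 38.6 CPM in the controls. Mutant replicates 1 and 2 were the highest of the 6 libraries, mutant replicate 3 lay among the controls, and control replicate 2 stood close to the high mutants. Its log2 fold change was 0.34 ± 0.21 (SE), with a 95% interval of -0.13 to 0.81. Replicates 1 and 2 alone differed by 0.43 (log2 CPM, mutant minus control) and replicate 3 alone by 0.19.

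Pcdh10, a gene of striatal and cortical axon pathways, had 209.8, 182 and 172 CPM in the mutants, against 206, 227 and 154 CPM in the controls, a log2 fold change of -0.059 ± 0.15 (SE). Pcdh18 had 69.3, 68.6 and 80.4 CPM in the mutants, against 72.4, 65.2 and 75.7 CPM in the controls, at 0.033 ± 0.099 (SE), and replicate 3 was the highest library of each genotype. Pcdh19, whose human orthologue is an epilepsy gene, had 152, 131 and 154 CPM in the mutants, against 152, 157 and 146 CPM in the controls, at -0.058 ± 0.092 (SE). Mutant replicate 2 was its lowest library and the other 5 were close together. Pcdh17 was at 116 ± 18.3 CPM in the mutants and 119 ± 22.2 CPM in the controls (SD, n = 3 each), and its replicate 3 was lowest in each genotype. After correction for GC content and length, Pcdh10 and Pcdh17 lay above 0, at 0.021 and 0.033 (log2).

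Of the remaining protocadherins, Pcdh20 had 15.2, 13.7 and 10.5 CPM in the mutants, against 17.5, 14.7 and 11.2 CPM in the controls, a log2 fold change of -0.14 ± 0.19 (SE), with replicate 3 lowest in each genotype. Pcdh12, known as an endothelial protocadherin, was at 14.6 ± 1.14 CPM in the mutants and 14.3 ± 1.10 CPM in the controls (SD, n = 3 each). Its libraries spanned 13.4 to 15.7 CPM in the mutants and 13.4 to 15.6 CPM in the controls. Cdh5, the vascular endothelial cadherin that the rule leaves out, had 27.1, 27.1 and 21.8 CPM in the mutants, against 23.2, 26.4 and 24.2 CPM in the controls, a log2 fold change of 0.041 ± 0.12 (SE). The summed level of the 11 endothelial markers was 345, 355 and 334 CPM in the mutants and 338, 316 and 335 CPM in the controls.

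Most members were low in the libraries numbered 3. In 19 of 31 members replicate 3 was the lowest library of its genotype in both the mutants and the controls, against 20.9% of all tested genes, and in 2 members it was the highest in both, against 21.4% of all tested genes. Measured against the mean of replicates 1 and 2, replicate 3 was lower in both genotypes for 24 members (31.1% of all genes) and higher in both for 2 (32.6% of all genes). The median member difference was -0.34 log2 units in the mutants and -0.27 in the controls, beside 0.0059 in the mutants and 0.0051 in the controls over all tested genes. Since the libraries numbered 3 were known to stand apart over all genes, no test was made.

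The largest negative differences, averaged over the genotypes, were in Cdh17, Cdh1, Cdh18, Cdh12 and Cdh9. Replicate 3 differed from replicates 1 and 2 in Cdh18 by -1.02 in the mutants and -0.81 in the controls, in Cdh12 by -0.50 in the mutants and -0.95 in the controls and in Cdh1 by -0.89 in the mutants and -1.12 in the controls (log2 CPM). Cdh18 had 12.4, 12.2 and 6.05 CPM in the mutants, against 11.6, 11.8 and 6.64 CPM in the controls, so that both replicate 3 libraries lay below all 4 others. Cdh17 and Cdh9 also lay more than 1 log2 unit lower in mutant replicate 3, at -1.19 in the mutants and -1.49 in the controls for Cdh17 and -1.11 in the mutants and -0.32 in the controls for Cdh9. Among the abundant members Cdh13 had -0.69 in the mutants and -0.36 in the controls and Pcdh17 had -0.42 in the mutants and -0.43 in the controls, whereas Cdh2 had -0.021 in the mutants and -0.10 in the controls.

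The members highest in replicate 3 of both genotypes were Pcdh18, with 0.22 in the mutants and 0.14 in the controls, and Cdh24, with 0.15 in the mutants and 0.31 in the controls. By subfamily, replicate 3 was the lowest library in both genotypes for 1 of 5 type I, 8 of 11 type II, 3 of 3 other cadherin, 3 of 4 delta-1, 2 of 5 delta-2 and 2 of 3 other protocadherin genes. The proliferating cell markers stood the other way, with a median difference of 0.69 in the mutants and 0.70 in the controls, as did the radial glia markers at 0.49 in the mutants and 0.43 in the controls. The cortical projection neuron markers stood at -0.10 in the mutants and -0.17 in the controls, and the ventral GABAergic markers at -0.0079 in the mutants and 0.087 in the controls. Mural, meningeal and microglial markers were lowest in replicate 3 of both genotypes for 7 of 9, 6 of 10 and 4 of 9 genes, and the summed meningeal level was 578, 535 and 500.3 CPM in the mutants and 626, 507 and 460.5 CPM in the controls. Of the large atypical cadherins and relatives, outside the family, 8 of 15 were lowest in replicate 3 of both genotypes, with a median difference of -0.33 in the mutants and -0.19 in the controls. The part of the marked cell types in the family's difference was not tested.

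**Figure D3:**
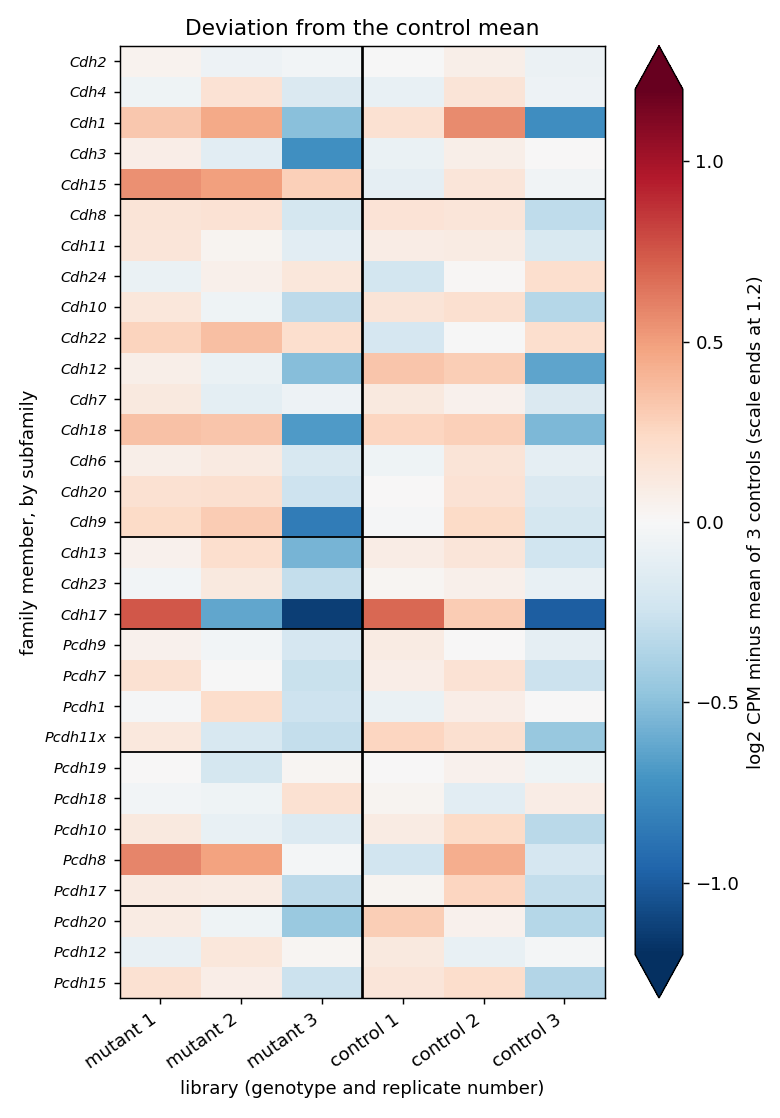
Log2 CPM of the 31 tested members in each library minus the mean of the 3 controls, mutants left and controls right, rows by subfamily. The replicate 3 columns of both genotypes are mostly blue, with Pcdh18, Cdh22 and Cdh24 red in both.

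**Figure D4:**
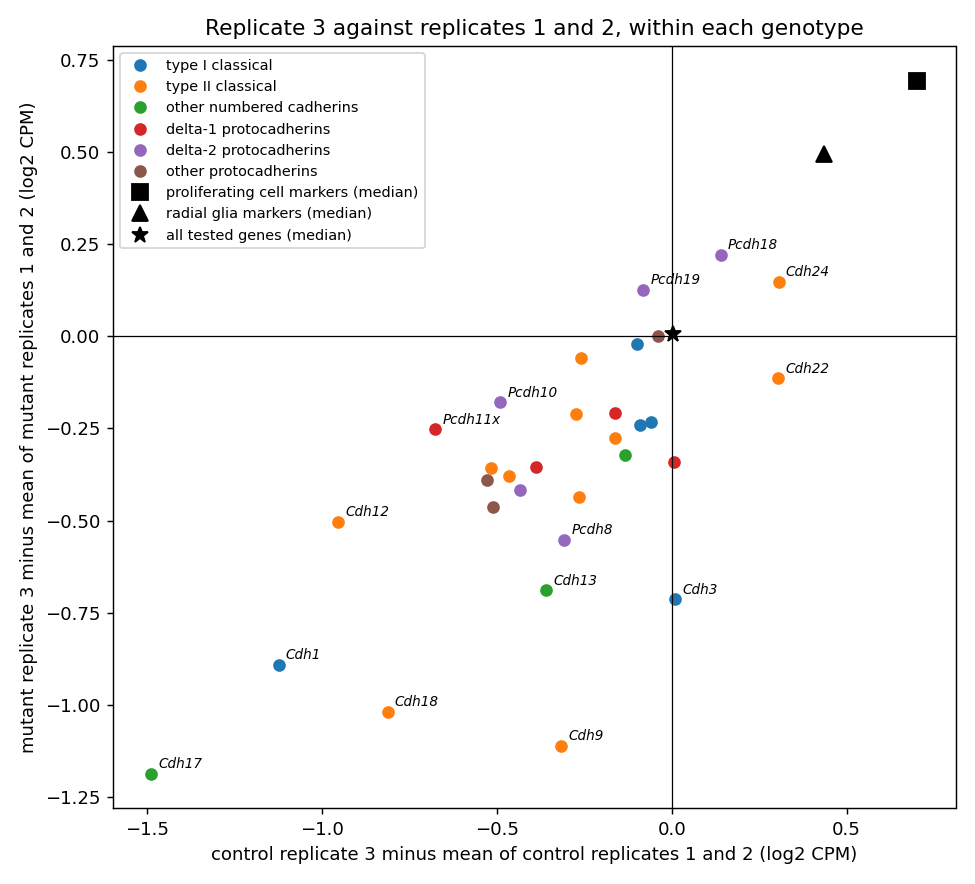
Difference of replicate 3 from the mean of replicates 1 and 2 in log2 CPM, controls on the x axis and mutants on the y axis, for each tested member and for the medians of marker lists. Of the 31 members, 24 lie in the lower left, opposite to the proliferating cell and radial glia markers.

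Between genotypes, the sign of a member depended on the replicates compared. Within replicates 1 and 2 the mutants lay below the controls for 16 of 31 members, and within replicate 3 likewise for 16, and 13 members had the same sign in both. The median difference was -0.0045 log2 units within replicates 1 and 2 and -0.0052 within replicate 3. Leaving out single libraries turned the balance of signs: 24 members lay above 0 without mutant replicate 3 and 20 without control replicate 2, while 24 lay below 0 without control replicate 3. The median log2 fold change was 0.083, 0.034 and -0.098 in the same 3 fits.

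Member fold changes also ran with base composition. The transcripts of tested members had a GC content of 33.8% (Cdh10) to 62.7% (Cdh22), with a median of 45.6%, beside 48.5% over all tested genes. Across the 31 members the Spearman correlation of GC content with the log2 fold change was 0.53, beside 0.33 across all tested genes with a GC value. These points share the same 6 libraries. Against the control mean, the correlation over members was -0.12, 0.49 and 0.43 in mutant replicates 1, 2 and 3, and -0.66, -0.26 and 0.62 in control replicates 1, 2 and 3. Over all tested genes it was 0.069, 0.55 and -0.059 in the mutants, and -0.22, -0.070 and 0.19 in the controls, in the same order. After correction of each library for GC content and length, the correlation of member GC content with fold change was -0.14. In that fit 21 members were above 0 and 10 below it, around a median of 0.034. The sign changed for Cdh2, Cdh6, Cdh7, Cdh9, Cdh10, Cdh24, Pcdh7, Pcdh9, Pcdh10, Pcdh11x, Pcdh15 and Pcdh17.

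The members with the smallest p were GC-rich. Cdh15, Pcdh8 and Cdh22 had 59.9%, 59.3% and 62.7% GC. After the correction their log2 fold changes were 0.37, 0.24 and 0.066, and edgeR's unadjusted p was 0.162, 0.189 and 0.601. Cdh24 and Pcdh1, of like GC content, had -0.12 and -0.14 after it. The AT-rich members Cdh10, Pcdh11x and Cdh12 then had 0.098, 0.035 and -0.073. No member was called in either fit. Control replicate 1 was the lowest control library for Cdh15, Pcdh8 and Cdh22, at 0.599, 38.0 and 8.93 CPM. For Pcdh8 control replicate 3 was close to it, at 38.6 CPM.

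**Figure D5:**
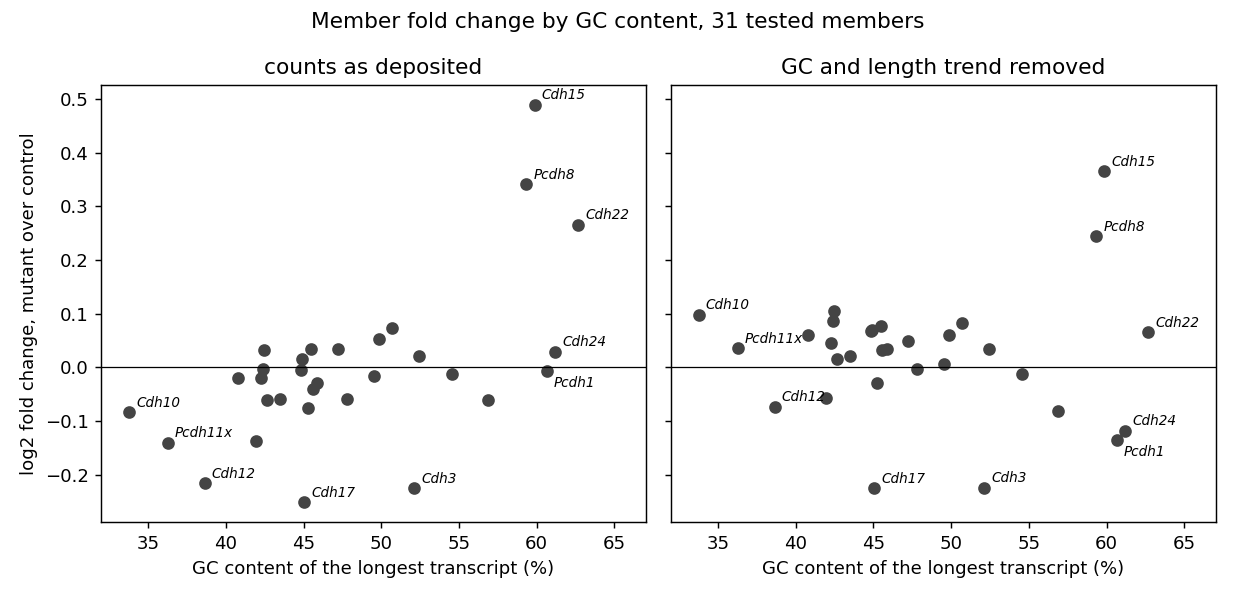
Log2 fold change, mutant over control, of each tested member against the GC content of its longest transcript, as deposited (left) and after correction for GC content and length (right). Each point is 1 member. On the left Cdh15, Pcdh8 and Cdh22 sit high at the GC-rich end, and on the right Cdh22 lies close to 0.

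Genes related to cadherins were measured by lists chosen with earlier results of these data known, and no gene of any list was called by edgeR. Some listed genes have wider roles. Groups did not overlap for Ctnnd1, Cblb, Ncstn and Cyfip1, with all mutants below all controls (3.70% of all tested genes), and for Cdhr4 and Fnta, with all mutants above (3.19% of all tested genes). Of 14 catenin and actin linker genes, 8 lay above 0 and 6 below, with a median of 0.0047 on the log2 scale. Ctnnd1, p120-catenin, which stabilises cadherins at the membrane, had the smallest p of the list. It had 29.3, 27.6 and 27.0 CPM in the mutants, against 33.5, 33.2 and 31.8 CPM in the controls. The log2 fold change was -0.23 ± 0.088 (SE), with an unadjusted p of 0.0286 and an adjusted p of 0.9999 (edgeR). Its relative Arvcf was at 0.14 ± 0.12 and Jup, plakoglobin, at 0.12 ± 0.096 (SE, log2). Beta-catenin, Ctnnb1, had 1247, 1216 and 1477 CPM in the mutants, against 1346, 1157 and 1419 CPM in the controls, and replicate 3 was the highest library in each genotype.

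Of 10 cadherin-cleaving protease genes, 6 lay above 0 and 4 below, with a median of 0.030. Mmp14, a membrane metalloprotease, had 0.14 ± 0.11, and the gamma-secretase gene Ncstn had -0.097 ± 0.076 (SE, log2). A list of 15 genes held effectors of delta-protocadherins together with related regulators, among them Mef2a, Mef2c and Ube3a. Of the 15, 5 lay above 0 and 10 below, with a median of -0.085. The WAVE complex genes Wasf2, Cyfip1 and Cyfip2, which had the smallest p of the list, had -0.12 ± 0.094, -0.090 ± 0.075 and -0.096 ± 0.085 (SE, log2). Other WAVE genes on the list were Abi2 at -0.11, Wasf3 at -0.099, Nckap1 at -0.085, Abi1 at -0.045, Wasf1 at 0.010 and Brk1 at 0.00014. The list's median difference, mutant minus control, was -0.12 within replicates 1 and 2 and 0.044 within replicate 3 (log2 CPM). Of 9 genes listed for cadherin endocytosis and trafficking, 5 lay above 0 and 4 below, with a median of 0.00065. The ubiquitin ligase gene Cblb had -0.17 ± 0.078 and the late endosomal Rab7 had -0.13 ± 0.11 (SE, log2). Fnta, on the same list but a gene of general protein prenylation, had 0.11 ± 0.084 (SE, log2).

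Of 8 genes for repressors of cadherin transcription, 7 were tested, with 4 above 0, 3 below and a median of 0.12. Those above 0 were Tcf3 and the sparse Snai1, Snai2 and Twist1, whose group means were 1.46 CPM or less. The abundant Zeb1, Zeb2 and Tcf4 were below 0. The list's median difference, mutant minus control, was 0.27 within replicates 1 and 2 and -0.071 within replicate 3 (log2 CPM). Levels of Zeb2 were 514, 488 and 446 CPM in the mutants, against 523, 593 and 468 CPM in the controls, whereas Snai1 had 0.879, 0.630 and 0.443 CPM in the mutants, against 0.240, 0.527 and 0.580 CPM in the controls. The log2 fold change was 0.54 ± 0.41 for Snai1, -0.15 ± 0.088 for Tcf4 and 0.20 ± 0.16 for Tcf3 (SE). Of 18 genes for large atypical cadherins and relatives, 15 were tested, with 6 above 0, 9 below and a median of -0.019. Cdhr4 had 0.668, 1.22 and 0.701 CPM in the mutants, against 0.390, 0.486 and 0.369 CPM in the controls. A single read equals 0.026 to 0.041 CPM in these libraries, so each Cdhr4 value rests on few reads. The log2 fold change was 1.06 ± 0.34 (SE), an unadjusted p of 0.0137 and an adjusted p of 0.9999 (edgeR). Dchs1, a ligand of Fat4, had -0.093 ± 0.078 and the calsyntenin gene Clstn1 had 0.11 ± 0.12 (SE, log2).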

How the data were processed

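Per the labels' protocols, libraries of 3 mutant and 3 control forebrains were made from total RNA after ribosomal depletion, with strand marking, and sequenced single-end (a label also reads polyA RNA). Per the submitters' processing notes and the series' design text, reads were aligned with HISAT2 to GRCm38 release 93, handled with SAMtools 1.9 and counted per gene with HTSeq 0.9.1. The authors deposited raw read counts, whole numbers with no normalization. The strand setting of the counting was not stated; Pcdh7, Pcdh8, Pcdh10, Pcdh19 and Cdh8 share exons with genes on the opposite strand, which reached at most 1.68% of the member's CPM.

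Symbols, coordinates, lengths and GC content came from GENCODE M21 on GRCm38, which named 32888 of 33084 genes. Genes were kept by filterByExpr (minimum count 10, minimum total 15), scaled by TMM and tested with edgeR 4.0.16 in R 4.3.3, using the quasi-likelihood F test with Benjamini-Hochberg adjustment at 0.05. Log2 CPM used a prior count of 2. Each SE was the log2 fold change over the root of F. Alternatives used limma 3.58.1 and DESeq2 1.42.0, and figures matplotlib 3.10.9. The GC and length trend was fitted per library by splines with 5 degrees of freedom for each. The edgeR fit was tested on counts simulated with known changes. The simulated libraries held no replicate 3 shift and no GC trend, so the fit was not tested under those.

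Library values are given for the 12 most abundant members per kilobase, the 6 per direction with the smallest p and any whose groups do not overlap, and 3 genes per pathway list with the smallest p (some are not reported here); Cdh1, Cdh18, Pcdh1, Ctnnb1, Zeb2 and marker genes were added after their values were seen. The members and lists were chosen with earlier results of these data known. Marker lists served as checks: medians of the log2 fold change were 0.065 (endothelial), 0.049 (meningeal), 0.035 (mural), 0.091 (choroid plexus), 0.044 (red cell), 0.027 (microglia), 0.068 (proliferating), 0.10 (radial glia), 0.067 (ventral GABAergic), -0.00013 (cortical projection neuron) and 0.051 (forebrain), with 0 genes called.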

Additional observations from a re-analysis of the deposited data

How the results depend on the processing

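Over 15 alternatives, 0 members, 0 genes of the pathway lists and 0 of all genes were called (smallest adjusted p of a member 0.386, limma-voom with sample weights). The alternatives were RLE size factors, no filter on low counts, DESeq2, limma-voom with and without sample weights, a replicate block, a term for the replicate 3 libraries, removal of the GC and length trend with and without the block, and leaving out each library. Of all genes, 376 had an unadjusted p under 0.05, against 261 in DESeq2, 393 in limma-voom, 587 without the filter, 845 with the replicate 3 term and 1909 with sample weights. Members at that level were Cdh15, Cdh22 and Pcdh8 with sample weights, Pcdh8 without mutant replicate 3 or without control replicate 2, Cdh12, Cdh22 and Pcdh11x without control replicate 3, and Pcdh1 with the GC trend removed and the block. The median log2 fold change of the members ranged from -0.098 without control replicate 3 to 0.083 without mutant replicate 3, on both sides of 0.

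The replicate numbers were not taken as pairs, since the correlation of same-numbered deviations was 0.24, 0.071 and 0.36 for replicates 1, 2 and 3, not above 0.1 in each. Mutant replicates 2 and 3 correlated best with the control of their own number, and mutant replicate 1 with control replicate 2, at 0.35. With the replicate block 0 members and 0 genes were called, 765 genes had an unadjusted p under 0.05 and the members' median was -0.016.

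Of 585 values for 39 named genes, 533 kept their sign and 52 in 16 genes changed it, none past the threshold. Leaving out 1 library gave these ranges of the log2 fold change: Cdh11 -0.063 to 0.086, Cdh13 -0.23 to 0.12, Cdh2 -0.040 to 0.020, Cdh20 -0.026 to 0.19, Cdh24 -0.075 to 0.15, Cdh4 -0.11 to 0.069, Cdh5 -0.011 to 0.14, Cdh8 -0.098 to 0.15, Dyrk1a -0.053 to 0.052, Pcdh10 -0.20 to 0.061, Pcdh18 -0.042 to 0.089, Pcdh19 -0.098 to 0.013, Pcdh20 -0.29 to 0.023, Pcdh7 -0.14 to 0.083 and Pcdh9 -0.11 to 0.0075. With sample weights the changed signs were Cdh2 at 0.0023, Cdh4 at 0.024, Cdh8 at -0.0086, Dyrk1a at 0.047, Pcdh18 at -0.012 and Pcdh7 at 0.0088. With the GC and length trend removed they were Cdh2 at 0.0063, Cdh24 at -0.12, Dyrk1a at 0.019, Pcdh10 at 0.021, Pcdh11x at 0.035, Pcdh7 at 0.034 and Pcdh9 at 0.016, and with the replicate block added Cdh2 at 0.0063, Cdh24 at -0.12, Dyrk1a at 0.018, Pcdh10 at 0.029, Pcdh11x at 0.026, Pcdh7 at 0.032 and Pcdh9 at 0.011. The cause of these changes was not tested.

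With 3 libraries per genotype the median SE of a member was 0.15 log2 units, its 95% interval reached from ±0.18 (Cdh2) to ±1.38 (Cdh17) around the estimate, and members with a log2 fold change of up to 0.49 (Cdh15) were not called. Cdh15, Cdh17, Cdh19 and Cdh26 are limited by counts of 36 reads or fewer per library. Outside the family, Cdhr4 and Snai1 are also limited by low counts, at 1.22 CPM or less in every library.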
